A study of Mus musculus with 20 samples.

Results

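Control mouse embryonic stem cells (ESCs) overexpressing GFP were set beside control E4.5 mouse embryos injected with a scramble siRNA. The 2 ESC libraries and 10 single-embryo libraries are 12 of the 20 samples of the series, and were taken by their labels. The other libraries, in which Klf5 was overexpressed or knocked down, were not analysed here. The series asks how Klf5 acts on embryonic and extra-embryonic cell fate, and these are the controls of its 2 experiments.

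Both kinds of sample are models with limits. The ESCs, a line from C57BL/6J mice, were grown with LIF at 1000 u/ml on irradiated mouse embryonic fibroblast (MEF) feeders, and were sequenced in bulk from TruSeq v2 libraries made with Superscript III. The embryos came from mice labelled C57BL/5J, were kept in KSOM with BSA under oil, and were each sequenced whole from SMARTseq-V4 cDNA. Sample kind, culture, feeder cells, siRNA injection and cDNA kit all change together between the groups, so their effects cannot be told apart. In bulk libraries of this kind, fewer cells of a type and less RNA per cell cannot be told apart either. Whether the ESC libraries are separate cultures is not stated, so p-values measure only the spread between these samples.

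At E4.5 the mouse blastocyst holds an outer epithelium, the trophectoderm, which pumps fluid into the cavity and later makes placenta. Inside it lie the epiblast, which forms the body, and the primitive endoderm, an epithelium that lays down basement membrane and later lines the yolk sac. ESCs are derived from the epiblast and are held by LIF and its effector Stat3 in a naive pluripotent state in which trophectoderm and primitive endoderm genes are largely silent. Pou5f1 (Oct4) is the factor without which the pluripotent lineage is lost, Cdx2 drives trophectoderm, and Gata4 acts in primitive endoderm.

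The ESC libraries summed to 26775363 and 36915688 estimated counts and the embryos to between 14701519 and 24939629. Values are CPM, counts scaled to a common library total after TMM normalization. Every log2 difference is the scramble embryo mean minus the GFP ESC mean, so negative values are higher in ESCs. A gene was called at a Benjamini-Hochberg adjusted p of 0.05 in edgeR's quasi-likelihood test together with a difference of at least 4-fold. Of 16454 genes tested, 2442 (14.8%) were called higher in embryos and 4490 (27.3%) higher in ESCs, 42.1% in all. The CPM of the groups did not overlap for 21% of genes in the direction of embryos and 38.4% in that of ESCs. Members named below were mostly picked for a large difference, so a lack of overlap in them is a description and adds no support. The median over all genes was −0.37, and it lay at −0.50 with RLE size factors, −0.11 with upper quartile scaling and −0.78 with total counts alone. Mitochondrial-genome transcripts made up 12.1% ± 4.84 (SD, n = 10) of an embryo library, from 4.34% to 18.5%, against 0.656% and 0.810% in the ESC libraries. From 13804 to 15568 genes had a count in an embryo library, and 19381 and 19871 in the ESC libraries. The groups did not overlap in either measure (exact two-sided permutation p = 0.0303, the smallest that 66 arrangements can give; adjusted p = 0.0404).

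The difference between the groups moved with the base composition of the transcript. Median log2 differences fell from 1.82 in the decile of genes with the lowest transcript GC content to −3.45 in the highest, against 0.38 to −1.07 over deciles of transcript length (Spearman's rho across genes −0.49 for GC and −0.12 for length; genes are not independent replicates). A fit with a GC offset for each library called 2136 of 16310 genes (13.1%) higher in embryos and 3658 (22.4%) higher in ESCs, of which 1509 and 3010 were also called without it. Its value stands beside a gene's log2 difference below where the offset changed it. That means a call ended or made, a sign turned, or a fold moved by more than 1.5 times. Genes given only by CPM, counts, a bound or a rank carry no such value. For them its absence does not mean that the offset left them unmoved.

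**Figure D1:**
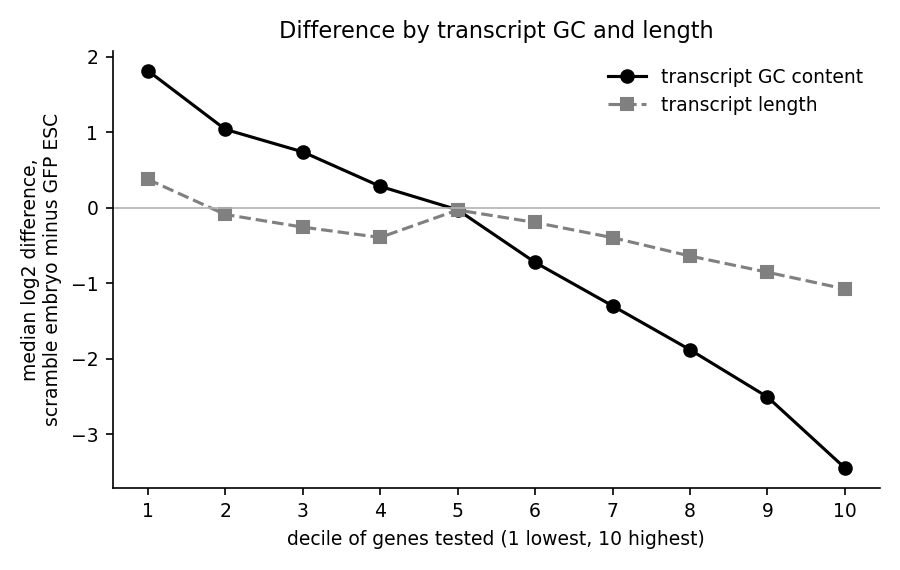
Median log2 difference (scramble embryo minus GFP ESC, vertical axis) of the genes tested in each decile of transcript GC content (filled circles) or transcript length (grey squares). The GC line runs from 1.82 in the lowest decile to −3.45 in the highest and the length line from 0.38 to −1.07.

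Pou5f1 (ENSMUSG00000024406, chr17:35506018-35510772 in mm10) stood at 2017 and 1953 CPM in the ESC libraries and at 19.09, 42.4 and 166 CPM in the lowest, median and highest embryo, and the groups did not overlap. All embryo values below come in that order. The log2 difference was −5.02 ± 0.57 (SE; adjusted p = 6.36e-06; −4.10 with the GC offset). Ranked by counts per kilobase within each library, where no scaling between kits enters, Pou5f1 lay at the percentile 99.9 in both ESC libraries and at 86.5 (77.6 to 95.2) in the embryos. Cdx2 (chr5:147300805-147307270) was at 1.07 and 0.729 CPM in ESCs and at 17.8, 34.0 and 152 CPM in embryos, a log2 difference of 5.88 ± 1.09 (SE; adjusted p = 0.000442; 7.84 with the GC offset). Its percentile was 29.1 and 26.6 in the ESC libraries and 65.3 (55.7 to 84.3) in embryos. These markers thus separated the groups in opposite directions.

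Gata4 (chr14:63198922-63271692) did not separate them. It measured 15.0 and 12.0 CPM in the ESC libraries and 1.71, 10.7 and 20.3 CPM in the lowest, median and highest embryo, and both ESC values fell inside the embryo range. The log2 difference was −0.33 ± 0.67 (SE; adjusted p = 0.698), and with the GC offset it was 0.90, also without a call. Gata6, which acts before Gata4 in the same lineage, did separate the groups, as given below. Embryos 5 and 6 stood apart from the other embryos: they had the lowest mitochondrial shares (4.34% and 5.48%), the highest Pou5f1 (166 and 142 CPM) and the highest Cdx2 (131 and 152 CPM). Left out together, a choice made after the data were seen, they moved the log2 difference of Pou5f1 to −5.69, of Cdx2 to 5.11 and of Gata4 to −0.20.

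**Figure D2:**
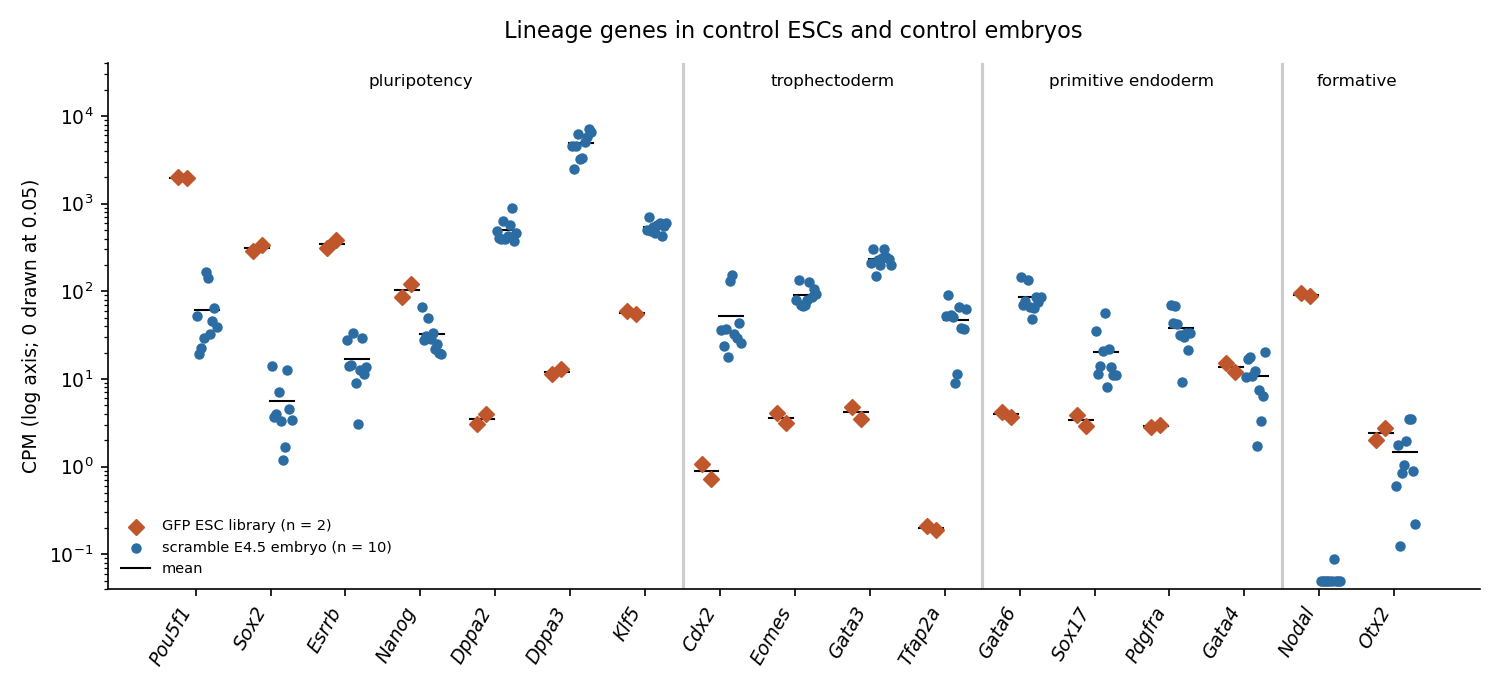
CPM on a log axis for 17 lineage genes in each GFP ESC library (orange diamonds, n = 2) and each scramble E4.5 embryo (blue circles, n = 10), with group means as bars and 0 drawn at 0.05. Pou5f1, Sox2, Esrrb and Nodal sit higher in ESCs, Dppa2, Dppa3, Klf5, Cdx2, Eomes, Gata3, Tfap2a, Gata6, Sox17 and Pdgfra higher in embryos, and Gata4 overlaps.

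The promoters of 6 genes that carry the contrast are printed to show how differently their start sites are built: the marker pair Pou5f1 and Cdx2, the embryo genes Dppa1 and Pramel7, which had no count in any ESC library, the ESC gene Fosb, which had no count in any embryo, and Pkm, the most abundant glycolytic gene that stayed called in ESCs with the GC offset. Each runs from 250 bases before to 50 bases after the first RefSeq start (GRCm38.p6), 5′ to 3′ on the strand of the gene, with each CG pair in capitals. CG pairs are the sites of mammalian DNA methylation. The windows are chr17:35505782-35506081 (plus strand) for Pou5f1, chr5:147307200-147307499 (minus) for Cdx2, chr11:46629225-46629524 (minus) for Dppa1, chr2:87492369-87492668 (minus) for Pramel7, chr7:19309996-19310295 (minus) for Fosb and chr9:59656326-59656625 (plus) for Pkm.
Pou5f1: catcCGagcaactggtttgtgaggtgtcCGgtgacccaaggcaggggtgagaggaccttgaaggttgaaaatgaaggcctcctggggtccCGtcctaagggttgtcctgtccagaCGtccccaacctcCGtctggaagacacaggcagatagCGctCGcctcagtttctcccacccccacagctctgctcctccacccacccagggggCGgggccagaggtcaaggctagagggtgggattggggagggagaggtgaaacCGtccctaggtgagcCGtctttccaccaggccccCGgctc
Cdx2: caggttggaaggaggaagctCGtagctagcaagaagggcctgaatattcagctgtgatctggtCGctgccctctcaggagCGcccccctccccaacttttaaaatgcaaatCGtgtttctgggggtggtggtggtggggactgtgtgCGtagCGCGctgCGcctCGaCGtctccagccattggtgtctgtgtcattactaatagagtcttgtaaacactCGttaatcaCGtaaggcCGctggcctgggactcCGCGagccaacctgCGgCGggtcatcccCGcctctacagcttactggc
Dppa1: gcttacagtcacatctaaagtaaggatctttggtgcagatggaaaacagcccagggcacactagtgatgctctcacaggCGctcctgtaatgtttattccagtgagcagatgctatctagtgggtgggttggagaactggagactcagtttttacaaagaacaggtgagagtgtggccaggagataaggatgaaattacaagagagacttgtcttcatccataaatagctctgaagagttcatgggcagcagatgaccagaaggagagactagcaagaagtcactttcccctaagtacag
Pramel7: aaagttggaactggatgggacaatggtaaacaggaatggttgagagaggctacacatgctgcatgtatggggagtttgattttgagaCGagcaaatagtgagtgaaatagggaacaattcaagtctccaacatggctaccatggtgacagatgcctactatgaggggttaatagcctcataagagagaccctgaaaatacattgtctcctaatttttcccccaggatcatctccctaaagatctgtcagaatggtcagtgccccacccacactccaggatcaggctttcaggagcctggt
Fosb: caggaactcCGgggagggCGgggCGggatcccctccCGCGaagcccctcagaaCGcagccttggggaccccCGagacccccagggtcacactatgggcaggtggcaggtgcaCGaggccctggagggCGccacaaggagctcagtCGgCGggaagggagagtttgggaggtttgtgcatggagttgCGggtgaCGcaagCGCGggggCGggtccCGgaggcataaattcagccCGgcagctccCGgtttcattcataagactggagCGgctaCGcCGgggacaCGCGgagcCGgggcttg
Pkm: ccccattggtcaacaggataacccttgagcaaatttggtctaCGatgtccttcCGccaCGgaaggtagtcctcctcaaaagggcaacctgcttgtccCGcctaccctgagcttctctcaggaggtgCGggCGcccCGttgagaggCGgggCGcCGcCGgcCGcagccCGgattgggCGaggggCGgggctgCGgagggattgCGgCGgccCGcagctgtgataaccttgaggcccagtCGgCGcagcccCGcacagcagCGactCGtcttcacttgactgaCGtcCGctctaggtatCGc
The Dppa1 and Pramel7 windows each held 1 CG pair, a number reached or passed by 94.2% of the 27025 RefSeq promoters of the same length. The Pramel7 window lies inside the span that the gene annotation gives, chr2:87489087-87497093, and away from its 5′ end. RefSeq and that annotation thus place its start differently. Fosb held 25 and Pkm 27, reached by 18.4% and 15.4% of promoters, while Pou5f1 held 11 (41.9%) and Cdx2 18 (30.1%). Of the 10 genes with the largest difference toward embryos, 8 had a promoter in the table, with 1 to 5 CG pairs and a median of 2.5. For the 10 with the largest difference toward ESCs, 6 had one, with 8 to 36 pairs and a median of 23.5. The difference at these extremes was small over all genes called: the median was 17 for 1803 genes higher in embryos and 20 for 3028 higher in ESCs, against 19 for the 11853 genes tested that had a promoter, and 15.6%, 7.79% and 11.0% of them had at most 4 pairs. Across those genes CG pairs had a Spearman's rho of −0.12 with the log2 difference (−0.14 with the GC offset) and 0.0091 with transcript GC content, given as a description. Methylation itself was not measured.

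Among core pluripotency genes, those that keep or mark the pluripotent state, members were called in both directions. Of the 16 members tested, 3 were called higher in embryos and 6 in ESCs, with a median log2 difference of −0.96 (4, 6 and −1.11 with the GC offset). The shares of members were 18.8% and 37.5%. Over all genes tested the shares called were 14.8% and 27.3%, so calls in both directions are also what genes at large show. The other lists are read against these shares of all genes. Sox2, the partner of Pou5f1 on DNA, was at 285 and 336 CPM in ESCs and 1.17, 3.81 and 13.9 CPM across the embryos, a log2 difference of −5.81 ± 0.58 (SE; adjusted p = 2.10e-06). The RNA-binding protein gene Lin28a was at 167 and 191 against 2.84, 4.35 and 7.99 CPM, with a log2 difference of −5.18 ± 0.34 (SE; adjusted p = 5.23e-08). Utf1, a chromatin factor of pluripotent cells, had 486 and 479.7 CPM in ESCs and 4.37, 16.5 and 44.0 CPM in embryos and a log2 difference of −4.70 ± 0.49 (SE; adjusted p = 3.15e-06; −1.71 and not called with the GC offset). No embryo came near an ESC library in Sox2, Lin28a or Utf1. Fgf4, the signal that the epiblast sends to its neighbours, was at 149.6 and 182 against 0.880, 12.3 and 23.7 CPM (log2 difference −3.70 ± 0.60 SE, adjusted p = 0.000133). Nanog did not reach 4-fold: it stood at 85.1 and 121 CPM in ESCs and 19.3, 28.0 and 67.1 CPM in embryos, a log2 difference of −1.67 (adjusted p = 0.0022; −2.88 and called with the GC offset).

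The 3 members called higher in embryos were Dppa2, Dppa5a and Zfp42. Dppa2, which with Dppa4 opens chromatin for early embryonic genes, was at 3.02 and 3.96 CPM in the ESC libraries and 376, 443 and 884 CPM in embryos, a log2 difference of 7.17 ± 0.53 (SE; adjusted p = 1.45e-07; 5.59 with the GC offset), so that every embryo exceeded both ESC libraries by far. Its partner Dppa4 measured 48.3 and 50.2 against 86.0, 149.9 and 327 CPM, with a log2 difference of 1.85 (adjusted p = 0.00666) and no call. Dppa5a, an RNA-binding protein gene, was among the most abundant embryo transcripts at 3656, 8639 and 13280 CPM against 893 and 863 CPM in ESCs (log2 difference 3.31 ± 0.48 SE, adjusted p = 5.03e-05). Zfp42 (Rex1), a zinc-finger gene widely used as a mark of naive cells, was at 21.6 and 22.5 CPM in ESCs and 105, 189.5 and 321 CPM in embryos, with a log2 difference of 3.15 ± 0.45 (SE; adjusted p = 4.62e-05; 2.06 with the GC offset). The list summed to 5363 and 5542 CPM in the ESC libraries and 5512 to 14760 CPM in the embryos.

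Naive pluripotency genes, a circuit fed by LIF in culture, were split in the same way. Of the 24 members tested, 4 were called higher in embryos and 8 in ESCs, with a median log2 difference of −0.52 (4, 4 and −0.70 with the GC offset). These shares, 16.7% and 33.3%, lay near the 14.8% and 27.3% of all genes tested, so the counts do not set the list apart. Socs3, the feedback inhibitor that Stat3 induces, stood at 202 and 268 CPM in ESCs and 0, 0.429 and 2.65 CPM in embryos (log2 difference −8.16 ± 0.85 SE, adjusted p = 3.05e-06, −5.18 with the GC offset). Stat3 itself was at 155 and 144 against 55.9, 74.6 and 84.6 CPM and its receptor subunit Il6st at 24.1 and 29.8 against 6.52, 11.8 and 15.5 CPM, both under 4-fold. The orphan nuclear receptors Nr0b1 (57.8 and 59.9 against 0, 0.865 and 7.96 CPM) and Esrrb (312 and 386 against 3.03, 13.8 and 33.2 CPM) were higher in ESCs, with log2 differences of −4.81 (adjusted p = 0.0042; −3.56 with the GC offset) and −4.37 (adjusted p = 5.85e-06; −2.81 with the GC offset). Klf2 (279 and 345 against 7.89, 13.6 and 26.8 CPM) and Klf4 (386 and 463 against 10.9, 26.4 and 57.7 CPM), Krueppel-like factors of the naive circuit, were called higher in ESCs at log2 differences of −4.33 and −3.82, but at −1.43 and −0.84 with the GC offset neither was called.

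Toward embryos, Dppa3 (Stella), which guards methylation in the egg and early embryo, gave the largest difference of the naive list: 11.4 and 12.9 CPM in ESCs against 2500, 4799 and 7134 CPM in embryos, or 8.65 ± 0.65 (SE; adjusted p = 1.54e-07; 7.27 with the GC offset). Klf5, a factor of both inner and outer cells of the blastocyst, was at 59.97 and 54.4 CPM in ESCs and 429.6, 555 and 713 CPM in embryos (log2 difference 3.26 ± 0.31 SE, adjusted p = 1.25e-06, 2.21 with the GC offset). Nr5a2, a nuclear receptor that can stand in for Pou5f1 in reprogramming, was at 3.02 and 5.50 against 22.8, 69.3 and 114 CPM (log2 difference 3.94 ± 0.62 SE, adjusted p = 0.00011). Fbxo15 overlapped, since 1 embryo had no count, and ranged to 174 CPM in embryos against 2.02 and 6.14 CPM in ESCs (log2 difference 4.58 ± 1.55 SE, adjusted p = 0.0218, 3.15 and not called with the GC offset). Tfcp2l1, also of the naive circuit, had 95.1 and 101 against 156, 328 and 388 CPM and 1.65 (adjusted p = 0.00164), under 4-fold.

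Formative and primed epiblast genes, which come on as epiblast leaves the naive state, were called toward ESCs alone in the edgeR fit. Of the 17 members tested of 20 listed, 0 were called higher in embryos and 9 in ESCs, with a median log2 difference of −3.77 (1, 7 and −1.56 with the GC offset). Nodal, the growth factor that patterns the later epiblast, measured 94.8 and 87.4 CPM in the ESC libraries and gave 1 count in all 10 embryos together. Sox3 gave 1 count as well, against 3.17 and 4.48 CPM in ESCs. Zic2 had no count in any embryo and 7.92 and 10.5 CPM in ESCs, at least 52.8-fold higher there when an empty library is set at the 3 counts that a 0 allows. Pou3f1 (Oct6) was at 28.3 and 26.3 against 0, 0.0805 and 1.32 CPM (log2 difference −6.85 ± 1.07 SE, adjusted p = 0.000107, −3.83 with the GC offset). Sox11 was at 43.1 and 43.9 against 0, 0 and 3.28 CPM (log2 difference −6.73 ± 1.37 SE, adjusted p = 0.000881, −7.84 with the GC offset).

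Otx2 and Fgf5, which define formative cells, were not among the genes called. Otx2 was at 2.02 and 2.77 CPM in ESCs and 0.125, 0.966 and 3.53 CPM in embryos and its groups overlapped (log2 difference −0.72, adjusted p = 0.569, −1.43 with the GC offset). Fgf5 was at most 0.292 CPM in any of the 12 libraries and was not tested. The Nodal feedback genes Lefty1 (50.8 and 76.1 against 0, 0.0275 and 1.93 CPM) and Lefty2 (15.5 and 21.1 against 0, 0.0223 and 1.45 CPM) were called higher in ESCs, at log2 differences of −7.03 and −5.89 (−4.23 and −3.55 with the GC offset). Tdgf1, the Nodal co-receptor, was at 215 and 236 CPM in ESCs and 44.1, 137 and 209.6 CPM in embryos, with a log2 difference of −0.76 (adjusted p = 0.173; −1.64 with the GC offset).

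BMP, Nodal and Id genes as a list gave 1 higher in embryos and 10 in ESCs of 17 tested (18 listed) with a median log2 difference of −3.68 (1, 9 and −3.05 with the GC offset). Id proteins block basic helix-loop-helix factors and are induced by BMP. Id1 was higher in ESCs at 69.9 and 53.9 against 0, 0.422 and 4.51 CPM (log2 difference −5.58 ± 1.04 SE, adjusted p = 0.000451, −4.39 with the GC offset), Id2 higher in embryos at 602, 936 and 1371 against 22.6 and 19.9 CPM (log2 difference 5.45 ± 0.46 SE, adjusted p = 4.34e-07, 4.10 with the GC offset), and Id3 overlapped at 113 and 103 against 24.1, 52.3 and 127 CPM (log2 difference −0.75, adjusted p = 0.255, 0.62 with the GC offset). Members of 1 family thus lay in each direction and in neither. The BMP feedback inhibitor Smad6 was at 21.3 and 24.7 CPM in ESCs and at most 0.663 CPM in embryos (log2 difference −7.88 ± 1.25 SE, adjusted p = 0.000117, −5.11 with the GC offset), and the ligand Bmp4 overlapped at 9.22 and 7.27 against 0, 3.07 and 8.26 CPM (log2 difference −1.26, adjusted p = 0.391, −0.32 with the GC offset).

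Trophectoderm regulators were called on both sides. Of the 21 members tested, 6 were called higher in embryos and 5 in ESCs, with a median log2 difference of 0.56 (9, 3 and 0.75 with the GC offset). Tfap2a, an AP-2 factor, was at 0.208 and 0.187 CPM in ESCs and 9.00, 51.3 and 89.8 CPM in embryos (log2 difference 7.86 ± 1.07 SE, adjusted p = 3.17e-05, 9.58 with the GC offset). Gata3, a partner of Cdx2, was at 4.80 and 3.50 against 149, 231 and 302 CPM (log2 difference 5.80 ± 0.42 SE, adjusted p = 1.10e-07, 7.12 with the GC offset). Eomes, needed for trophoblast proliferation, stood at 4.09 and 3.17 against 68.8, 83.2 and 136 CPM (log2 difference 4.66 ± 0.43 SE, adjusted p = 1.03e-06, 6.76 with the GC offset). Elf5, a trophoblast stem cell factor, was at 0.563 and 0.625 against 5.74, 19.3 and 63.1 CPM (log2 difference 5.39 ± 1.03 SE, adjusted p = 0.000545). The lowest embryo stood above the ESC libraries in these 4 factors. Over the list 8 members did not overlap toward embryos and 7 toward ESCs, against 21% and 38.4% of all genes. Tead4, the Hippo effector upstream of Cdx2, was detected in both: 27.0 and 21.95 CPM in ESCs and 20.1, 55.7 and 76.3 CPM in embryos, with a log2 difference of 1.16 (adjusted p = 0.0257; 3.92 and called with the GC offset). Tfap2c was also in both, at 62.7 and 74.1 and 21.04, 38.7 and 60.2 CPM (log2 difference −0.79, adjusted p = 0.0443).

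Of the same list, Esx1, Hand1, Dlx3, Ascl2 and Ets2 were called higher in ESCs. Esx1, a labyrinth and spongiotrophoblast homeobox gene, had no count in any embryo and 28.2 and 27.1 CPM in ESCs, at least 158-fold higher there. Hand1, which drives giant cells, was at 34.5 and 18.8 CPM against at most 0.279 CPM in embryos (log2 difference −8.28 ± 1.01 SE, adjusted p = 1.20e-05, −6.27 with the GC offset). Dlx3 measured 7.32 and 5.27 CPM against at most 0.110 CPM (log2 difference −7.88 ± 1.15 SE, adjusted p = 5.62e-05, −6.43 with the GC offset). Ascl2 was at 30.1 and 31.5 against 0.528, 1.07 and 9.01 CPM (log2 difference −3.77 ± 0.78 SE, adjusted p = 0.00101, −0.82 and not called with the GC offset). Ets2, an ETS factor, was at 20.3 and 20.5 against 0.331, 4.198 and 9.56 CPM (log2 difference −2.24 ± 0.75 SE, adjusted p = 0.0211, −1.52 and not called with the GC offset). Prl3d1 and Tpbpa, products of differentiated trophoblast, had no count in any of the 12 libraries.

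Trophectoderm products were mostly higher in embryos where called. Of the 25 members tested of 28 listed, 15 were called higher in embryos and 3 in ESCs, with a median log2 difference of 2.57 (12, 2 and 2.50 with the GC offset). Their summed level was 2724 and 2021 CPM in the ESC libraries and 12070 to 24690 CPM in the embryos. Dppa1 had no count in either ESC library and reached 1410, 2949 and 6048 CPM in embryos, at least 41270-fold higher. The tetraspanin Tspan8 was at 0 and 0.146 CPM in ESCs and 781, 1232 and 1912 CPM in embryos (log2 difference 13.79 ± 0.99 SE, adjusted p = 1.20e-07, 11.94 with the GC offset). Plac1, a placental surface protein gene, was at 0.652 and 0.0833 against 133, 263 and 647 CPM (log2 difference 9.80 ± 1.15 SE, adjusted p = 8.49e-06, 8.69 with the GC offset). Lcp1, an actin-bundling protein gene, measured 1.48 and 1.60 against 219, 335 and 801 CPM (log2 difference 8.02 ± 0.77 SE, adjusted p = 1.52e-06, 7.18 with the GC offset). Fabp3, a fatty acid binding protein gene, was among the most abundant embryo transcripts at 5009, 8305 and 13130 CPM against 302 and 322 CPM (log2 difference 4.79 ± 0.49 SE, adjusted p = 2.47e-06, 5.72 with the GC offset).

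Fgfr2, the FGF receptor of trophectoderm, was at 12.0 and 13.2 CPM in ESCs and 81.6, 113 and 234 CPM in embryos (log2 difference 3.38 ± 0.50 SE, adjusted p = 6.40e-05), opposite in direction to its ligand Fgf4. The other FGF receptors went the other way. Fgfr1 stood at 182 and 174 against 12.1, 16.7 and 31.6 CPM (log2 difference −3.17, adjusted p = 1.68e-06, −1.84 and not called with the GC offset). Fgfr4 was at 15.2 and 17.6 against 0, 1.18 and 1.88 CPM (log2 difference −3.97, adjusted p = 0.000961, −1.57 and not called with the GC offset), and Fgfr3 had 17.9 and 23.1 CPM in ESCs and no count in any embryo, at least 117-fold higher in ESCs. Among products higher in ESCs, the glucose transporter gene Slc2a1 (Glut1) was at 1489 and 929.8 against 8.28, 18.6 and 27.2 CPM (log2 difference −6.08 ± 0.31 SE, adjusted p = 7.24e-09, −4.65 with the GC offset).

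Epithelial keratin and junction genes were called in both directions. Of the 28 members tested, 7 were called higher in embryos and 5 in ESCs, with a median log2 difference of 0.11 (10, 1 and 0.52 with the GC offset). The sign of that median changed between scalings (−0.02 with RLE size factors and −0.34 with total counts), so no direction is given for the list. Dsc2, Dsp and Dsg2, of the desmosomes that rivet epithelial cells together, were higher in embryos. Dsc2 was at 1.87 and 1.25 against 13.6, 34.9 and 79.7 CPM (log2 difference 4.61 ± 0.74 SE, adjusted p = 0.000139, 2.71 with the GC offset). Dsp was at 27.5 and 14.9 against 109.6, 348 and 574 CPM (log2 difference 3.95 ± 0.69 SE, adjusted p = 0.000276). Dsg2 was at 12.1 and 11.7 against 59.0, 166 and 279 CPM (log2 difference 3.71 ± 0.59 SE, adjusted p = 0.000128, 2.77 with the GC offset). In all 3 the lowest embryo exceeded both ESC libraries. Over the list 10 members did not overlap toward embryos and 8 toward ESCs, against 21% and 38.4% of all genes. Jup (plakoglobin), which links desmosomes and cadherins, lay in the other direction at 197 and 179 against 10.9, 18.2 and 36.7 CPM (log2 difference −3.17 ± 0.32 SE, adjusted p = 2.38e-06, −1.33 and not called with the GC offset).

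Cdh1 (E-cadherin), used by both cell kinds, overlapped at 373 and 323 and 242, 552 and 1009 CPM (log2 difference 0.72, adjusted p = 0.237, 1.32 with the GC offset), whereas Epcam was higher in embryos at 733, 1175 and 1552 against 236 and 227 CPM (log2 difference 2.31 ± 0.38 SE, adjusted p = 0.000152, 4.12 with the GC offset). The simple keratins, intermediate filaments of trophectoderm, were not absent from ESCs. Krt18 was at 557 and 258 CPM in ESCs and 965, 1725 and 5819 CPM in embryos (log2 difference 2.57 ± 0.75 SE, adjusted p = 0.00924, 4.13 with the GC offset). Krt8 was at 637 and 265 and 1106, 1363 and 3252 CPM (log2 difference 1.96 ± 0.55 SE, adjusted p = 0.00766, 3.79 and called with the GC offset), and Krt19 was higher in ESCs at 171 and 87.3 against 0.363, 7.73 and 15.6 CPM (log2 difference −4.16 ± 0.65 SE, adjusted p = 0.000103, −2.48 with the GC offset). ESC library 1 exceeded ESC library 2 in all 3 keratins. Esrp2, a splicing regulator of epithelia, was at 6.34 and 4.48 against 31.3, 52.4 and 88.5 CPM (log2 difference 3.40 ± 0.46 SE, adjusted p = 2.84e-05, 5.11 with the GC offset).

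The tight-junction claudins also split. Cldn6 and Cldn4 were called higher in ESCs at log2 differences of −3.09 and −2.34 but not with the GC offset (−2.06 and −0.64), and Cldn7, at 97.8 and 79.3 and 160.2, 233 and 596 CPM, was called higher in embryos with the offset alone (log2 difference 1.78, adjusted p = 0.0148, 3.58 and called with the GC offset). Pumps and channels of the blastocyst cavity gave 3 higher in embryos and 3 in ESCs of 13 tested (15 listed) with a median log2 difference of 0.89 (3, 2 and 0.32 with the GC offset). The water channel gene Aqp9 was at 0.178 and 0.167 CPM in ESCs and 46.9, 62.3 and 95.3 CPM in embryos (log2 difference 8.52 ± 0.56 SE, adjusted p = 5.38e-08). Aqp8 was at 0.385 and 0.271 against 1.32, 7.29 and 68.4 CPM (log2 difference 5.53 ± 1.61 SE, adjusted p = 0.0095). Aqp3 was in both at 66.6 and 65.6 and 76.5, 98.8 and 206 CPM (log2 difference 0.83, adjusted p = 0.0618, 1.94 with the GC offset).

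Other members of the list lay in either direction or in neither. Atp1b1, a sodium pump beta subunit gene, was at 46.3 and 47.9 CPM in ESCs and 73.4, 98.8 and 152 CPM in embryos (log2 difference 1.14, adjusted p = 0.00615) and was not called. Atp12a, the non-gastric proton pump subunit, was higher in embryos at 25.3, 38.2 and 55.1 against 2.40 and 2.35 CPM (log2 difference 4.02 ± 0.41 SE, adjusted p = 2.47e-06, 3.29 with the GC offset). Scnn1a, a sodium channel subunit gene, was at 15.3 and 12.0 CPM in ESCs and at most 0.249 CPM in embryos (log2 difference −7.47 ± 1.16 SE, adjusted p = 9.96e-05, −5.74 with the GC offset).

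Primitive endoderm regulators gave 3 higher in embryos and 2 in ESCs of 14 tested (15 listed) with a median log2 difference of 1.47 (5, 1 and 2.40 with the GC offset). The 2 called higher in ESCs were the FGF receptor genes Fgfr3 and Fgfr4, whose values are given above. Gata6 was at 4.24 and 3.69 CPM in ESCs and 48.4, 77.4 and 146 CPM in embryos (log2 difference 4.44 ± 0.51 SE, adjusted p = 6.83e-06, 6.72 with the GC offset), with percentiles of 57.6 and 56.1 in the ESC libraries and a median of 89.5 in embryos. Pdgfra, the receptor that marks the lineage, was at 2.85 and 3.02 against 9.13, 33.3 and 69.1 CPM (log2 difference 3.70 ± 0.70 SE, adjusted p = 0.000478). Sox17, which acts after Gata6, was at 3.91 and 2.94 against 8.07, 13.8 and 55.8 CPM (log2 difference 2.56 ± 0.76 SE, adjusted p = 0.0104, 4.53 with the GC offset). Sox7, the last of the series, overlapped at 0.741 and 0.666 against 0, 2.23 and 10.7 CPM (log2 difference 2.30, adjusted p = 0.265).

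Products of primitive endoderm were called on both sides. Of the 26 members tested of 29 listed, 5 were called higher in embryos and 11 in ESCs, with a median log2 difference of −2.54 (4, 8 and −1.0002 with the GC offset). The endocytic adaptor Dab2 was higher in embryos, at 5.16 and 6.66 against 249.7, 379 and 508 CPM (log2 difference 5.98 ± 0.48 SE, adjusted p = 2.56e-07, 4.76 with the GC offset). Apoa1 was at 1.63 and 3.21 against 38.5, 77.4 and 183 CPM (log2 difference 5.26 ± 0.84 SE, adjusted p = 0.000125, 6.58 with the GC offset). Apom, like Apoa1 an apolipoprotein gene, was at 0.119 and 0.646 against 2.64, 10.1 and 25.1 CPM (log2 difference 5.03 ± 1.05 SE, adjusted p = 0.00106, 6.08 with the GC offset). Apoc2 was at 1.36 and 1.44 against 9.18, 21.7 and 51.2 CPM (log2 difference 4.06 ± 0.76 SE, adjusted p = 0.000437, 5.54 with the GC offset). No embryo overlapped the ESC libraries in these 4 genes, picked for their large difference. Of the 26 members tested, 5 did not overlap toward embryos and 16 toward ESCs, against 21% and 38.4% of all genes. Amn, partner of the endocytic receptor Cubn, was higher in ESCs at 14.2 and 15.5 CPM against at most 0.502 CPM (log2 difference −6.68 ± 1.21 SE, adjusted p = 0.000361, −3.69 with the GC offset), and Cubn itself was at 5.25 and 6.08 against 13.5, 38.2 and 56.6 CPM (log2 difference 2.62 ± 0.63 SE, adjusted p = 0.00275, 0.55 and not called with the GC offset). Apoe, which many cell types make, was at 2936 and 2638 CPM in ESCs and 117, 174 and 569 CPM in embryos (log2 difference −3.62 ± 0.43 SE, adjusted p = 1.00e-05, −0.85 and not called with the GC offset). Ttr and Afp, of the later yolk sac, were too low to test.

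Most basement membrane and collagen-processing genes named here were higher in the ESC libraries. The perlecan gene Hspg2 was at 1540 and 1307 CPM in ESCs and 0.0379, 2.01 and 6.20 CPM in embryos (log2 difference −9.33 ± 0.86 SE, adjusted p = 1.09e-06, −6.50 with the GC offset). Serpinh1, the collagen chaperone, was at 357 and 339.9 against 0, 1.79 and 10.8 CPM (log2 difference −6.94 ± 1.24 SE, adjusted p = 0.000328, −5.28 with the GC offset). P4ha1, a collagen hydroxylase subunit gene, was at 201 and 152 against 1.52, 9.43 and 17.1 CPM (log2 difference −4.15 ± 0.51 SE, adjusted p = 1.35e-05, −5.19 with the GC offset). No embryo reached either ESC library in these 3 genes. The laminin chains Lamb1 (442 and 354 against 24.5, 58.3 and 95.9 CPM) and Lamc1 (373 and 338 against 24.9, 46.2 and 128 CPM) were called at log2 differences of −2.80 and −2.64 (−3.51 and −3.79 with the GC offset). Collagen IV genes Col4a1 (659 and 454 against 14.3, 70.9 and 104 CPM) and Col4a2 (432 and 301 against 12.3, 48.1 and 91.5 CPM) were called at log2 differences of −3.13 and −2.89 but not with the GC offset (−1.26 and −0.10). Lama1, the chain that defines the embryonic laminin, overlapped at 113 and 75.3 and 15.9, 65.9 and 213 CPM (log2 difference −0.32, adjusted p = 0.709, 0.57 with the GC offset).

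Markers of fibroblasts were also higher in the ESC libraries. All 19 fibroblast genes tested, of 20 listed, were called higher in ESCs, against 27.3% of all genes tested, with a median log2 difference of −8.67 (−8.35 with the genes at 0 set at their bounds). With the GC offset 18 stayed called, Twist1 being the exception (−4.60, and −2.05 with the offset). The list summed to 1354 and 1465 CPM in the ESC libraries and 0.792 to 15.6 CPM in the embryos. Col1a1, the main collagen of fibroblasts, was at 253 and 351 CPM in ESCs and at most 0.121 CPM in embryos (log2 difference −12.56 ± 0.50 SE, adjusted p = 1.90e-09, −11.02 with the GC offset). Tagln was at 233 and 184 against 0, 0.334 and 2.04 CPM and Thy1 at 39.2 and 44.2 against 0, 0.101 and 1.70 CPM. Lox, the collagen cross-linker, Postn and S100a4 had no count in any embryo, and Lox was at least 1345-fold higher in ESCs. Lum was absent from embryos too but gave 1 count in the ESC libraries. The feeder layer is a fibroblast culture, and its part in the matrix result was not tested.

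**Figure D3:**
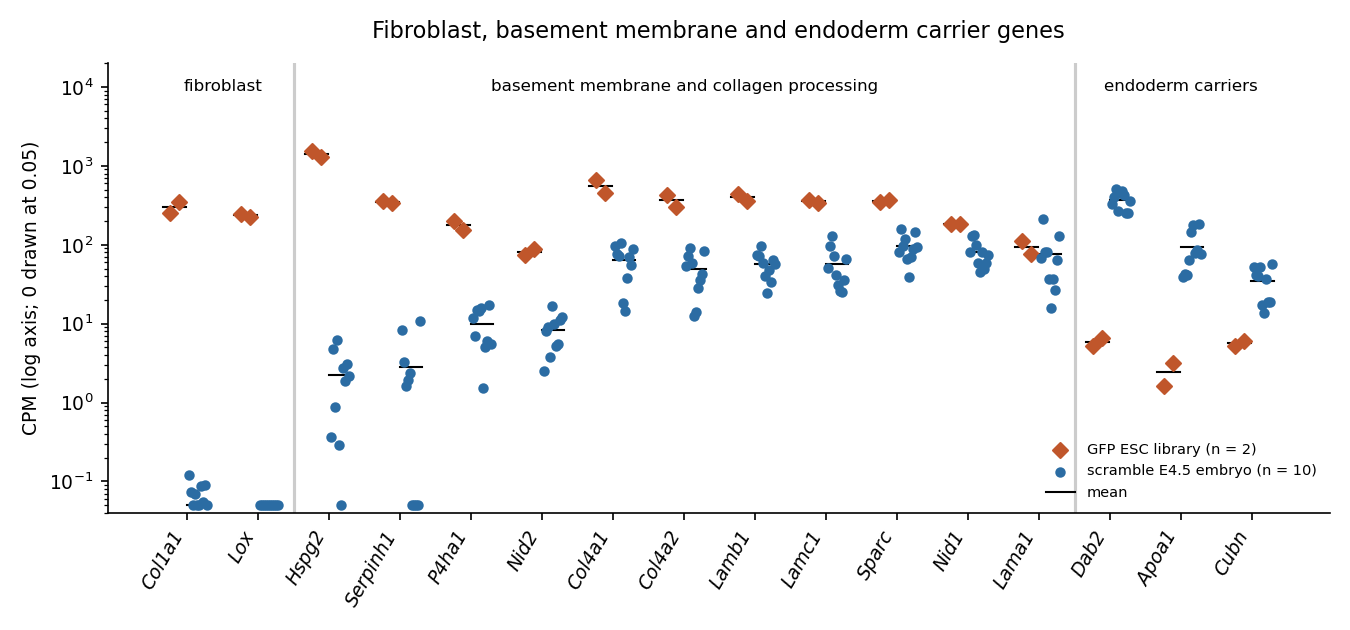
CPM on a log axis of fibroblast (Col1a1, Lox), basement membrane or collagen-processing (in between) and endoderm carrier genes (Dab2, Apoa1, Cubn) in each GFP ESC library (orange diamonds, n = 2) and each scramble embryo (blue circles, n = 10), with means as bars and 0 drawn at 0.05. Col1a1 and Lox sit at or near 0 in every embryo, Hspg2 to Lamc1 are higher in ESCs, Sparc, Nid1 and Lama1 were not called, and the carriers are higher in embryos.

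Markers of the other cells that a collection could carry were low. Cumulus and granulosa genes gave 0 higher in embryos and 5 in ESCs of 9 tested (13 listed) with a median log2 difference of −5.20 (0, 5 and −4.78 with the GC offset, and a median of −2.13 with genes at 0 set at their bounds) and summed to 53.7 and 50.1 CPM in the ESC libraries and 2.37 to 15.9 CPM in the embryos. Fshr had no count in any library. Macrophage and blood genes gave 0 higher in embryos and 3 in ESCs of 6 tested (12 listed) with a median log2 difference of −3.17 (0, 3 and −2.82 with the GC offset) and summed to 44.6 and 31.1 CPM in the ESC libraries and 0.872 to 20.6 CPM in the embryos. In the ESC libraries Lyz2 was at 2.64 and 4.46 CPM, against no count in embryos (at least 20.3-fold), and Csf1r at 10.2 and 4.37 CPM against 2 counts in all embryos. Ptprc, which defines blood cells, was at 0.0593 and 0.146 CPM in ESCs and at most 0.605 CPM in embryos, too low to test.

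Genes of FGF signalling and ERK feedback gave 1 higher in embryos and 13 in ESCs of 20 tested with a median log2 difference of −3.19 (1, 10 and −2.87 with the GC offset). The 1 toward embryos was the receptor gene Fgfr2, given above. The immediate-early genes, which answer growth factors or handling within minutes, were near 0 in most embryos. Fosb had no count in any embryo and 654 and 544 CPM in ESCs, at least 3427-fold higher there. Egr1 was at 577 and 482 against 0, 0.0997 and 1.32 CPM (log2 difference −11.13 ± 0.88 SE, adjusted p = 2.55e-07, −9.79 with the GC offset). Fos was at 1251 and 1217 against 0, 0.501 and 10.9 CPM (log2 difference −9.53 ± 1.21 SE, adjusted p = 1.71e-05, −8.07 with the GC offset). The ERK target Etv4 was at 147 and 106 against 0, 0.397 and 1.74 CPM (log2 difference −7.94 ± 0.84 SE, adjusted p = 3.35e-06, −4.99 with the GC offset), but its relative Etv5 overlapped at 42.2 and 58.5 and 14.5, 25.4 and 76.3 CPM (log2 difference −0.63, adjusted p = 0.263). The ERK phosphatase Dusp6 did not pass the test at 64.03 and 56.0 against 0, 4.03 and 38.5 CPM (log2 difference −2.55, adjusted p = 0.108, −3.17 with the GC offset), nor did the inhibitor Spry2 at 27.5 and 24.6 against 1.15, 5.90 and 19.7 CPM (log2 difference −1.51, adjusted p = 0.102, −2.71 and called with the GC offset).

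WNT targets gave 1 higher in embryos and 8 in ESCs of 13 tested (14 listed) with a median log2 difference of −4.16 (1, 7 and −4.10 with the GC offset, and a median of −4.13 with genes at 0 set at their bounds). Notum, a secreted WNT inhibitor, had no count in any embryo and 2.99 and 4.23 CPM in ESCs (at least 20.7-fold), and T (brachyury) gave 1 count in the embryos against 0.593 and 0.583 CPM in ESCs. Axin2, the most general WNT target, was not called at 8.81 and 9.20 against 0.227, 3.09 and 8.59 CPM (log2 difference −1.40, adjusted p = 0.164, 0.83 with the GC offset). Dkk1, a WNT antagonist, was the single member higher in embryos, at 0.623 and 0.541 against 4.13, 19.7 and 41.0 CPM (log2 difference 5.10 ± 0.86 SE, adjusted p = 0.000194, 3.88 with the GC offset). Hippo pathway and YAP target genes gave 0 higher in embryos and 9 in ESCs of 17 tested (19 listed) with a median log2 difference of −3.00 (1, 9 and −2.21 with the GC offset). The secreted YAP targets Ccn1 (495 and 419.8 against 1.49, 9.13 and 27.3 CPM) and Ccn2 (405 and 363 against 0.352, 3.41 and 12.7 CPM) were higher in ESCs, at log2 differences of −5.53 and −6.36 (−5.04 and −6.19 with the GC offset), and fibroblasts make both. Wwtr1 (TAZ) and Yap1, the coactivators, were under 4-fold at log2 differences of 0.46 and −1.25 (−1.04 and 0.37 with the GC offset).

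Genes of DNA methylation, both enzymes and other factors, were higher in ESCs where they were called. Of the 13 members tested of 15 listed, 0 were called higher in embryos and 6 in ESCs, with a median log2 difference of −1.80 (0, 5 and −0.92 with the GC offset). Dnmt1, the maintenance enzyme, was at 314 and 363 CPM in ESCs and 9.53, 20.9 and 26.9 CPM in embryos (log2 difference −4.10 ± 0.28 SE, adjusted p = 8.89e-08, −3.19 with the GC offset), and its recruiter Uhrf1 at 569 and 630 against 34.7, 83.8 and 119 CPM (log2 difference −2.93 ± 0.35 SE, adjusted p = 9.43e-06, −2.17 with the GC offset). Zfp57, which protects imprints, was at 232 and 192 against 1.45, 2.65 and 9.86 CPM (log2 difference −5.68 ± 0.54 SE, adjusted p = 1.38e-06). Dnmt3l was at 517 and 464 against 48.0, 74.3 and 95.8 CPM (log2 difference −2.80 ± 0.22 SE, adjusted p = 2.50e-07, −2.19 with the GC offset). In these 4 genes every embryo lay below both ESC libraries. Over the list 8 members did not overlap toward ESCs and 0 toward embryos, against 38.4% and 21% of all genes. Dnmt3b, the main new-methylation enzyme of epiblast, overlapped at 105 and 119.5 and 89.3, 170.3 and 263 CPM (log2 difference 0.69, adjusted p = 0.157, 1.35 with the GC offset). Tet1 and Tet2, which oxidise methylcytosine, overlapped as well, at log2 differences of 0.91 and 1.29 (0.49 and −0.01 with the GC offset).

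Imprinted genes, which carry allele-specific methylation, gave 1 higher in embryos and 11 in ESCs of 25 tested (32 listed) with a median log2 difference of −2.06 (1, 11 and −1.44 with the GC offset), and 7 of the 32 listed were not in the tables. Dlk1 had no count in any embryo and 9.31 and 8.87 CPM in ESCs, at least 52.0-fold. Peg10 was at 366 and 131 CPM in the ESC libraries, which differed from each other, against 0.0379, 0.994 and 3.91 CPM (log2 difference −7.29 ± 0.77 SE, adjusted p = 3.26e-06, −8.28 with the GC offset). Cdkn1c was at 39.5 and 58.3 against 0, 0.356 and 1.39 CPM (log2 difference −6.48 ± 0.86 SE, adjusted p = 2.49e-05, −3.90 with the GC offset). Igf2, also made by fibroblasts, was at 344 and 232 against 4.59, 13.9 and 50.1 CPM (log2 difference −4.13 ± 0.54 SE, adjusted p = 2.12e-05, −2.83 with the GC offset). Plagl1 was the single member higher in embryos, at 11.7 and 7.56 against 9.00, 51.7 and 139.5 CPM with overlapping groups (log2 difference 2.46 ± 0.88 SE, adjusted p = 0.0285, 4.195 with the GC offset).

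Genes of the 2-cell-like state, a rare condition of ESCs that resembles the embryo at genome activation, gave 1 higher in embryos and 5 in ESCs of 13 tested (23 listed) with a median log2 difference of 0.45 (1, 5 and −0.50 with the GC offset), with 1 listed gene not in the tables. The sign of that median also changed with limma voom, with no filter on low counts, with all 20 libraries, with the length offset and without either ESC library, so no direction is given for the list. Zscan4f had no count in any embryo and 2.85 and 7.35 CPM in ESCs, at least 29.2-fold, and Duxf3 (Dux) and Zscan4c were likewise at 0 in all embryos, with 1.28 and 1.33 and 0.504 and 0.416 CPM in ESCs. Zscan4 genes are near-identical copies, so the split of reads among them is uncertain. The number called higher in ESCs was 1 with DESeq2, 0 with a filter of 5 CPM and 8 with no filter on low counts. Sp110 was higher in embryos at 1.07 and 1.65 against 5.67, 11.7 and 15.0 CPM (log2 difference 2.98 ± 0.55 SE, adjusted p = 0.000427).

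Germline genes gave 6 higher in embryos and 6 in ESCs of 23 tested (24 listed) with a median log2 difference of −0.15 (5, 5 and −1.39 with the GC offset). The median was 0.11 with upper quartile scaling, and without either ESC library the number higher in ESCs was 3. Among those higher in embryos, Sycp3, of the synaptonemal complex, was at 5.84 and 6.39 against 321, 558 and 1241 CPM (log2 difference 6.69 ± 0.73 SE, adjusted p = 4.47e-06, 4.26 with the GC offset). Asz1, a piRNA pathway gene, was at 0.119 and 0.0625 against 6.55, 17.6 and 27.6 CPM (log2 difference 7.53 ± 0.87 SE, adjusted p = 7.70e-06, 5.48 with the GC offset). Stk31 was at 2.76 and 4.21 against 44.9, 87.4 and 131 CPM (log2 difference 4.76 ± 0.51 SE, adjusted p = 3.80e-06, 2.63 with the GC offset). Every embryo exceeded both ESC libraries in all 3. Over the list 6 members did not overlap toward embryos and 8 toward ESCs, against 21% and 38.4% of all genes. Ddx4 (Vasa) was on the other side at 15.2 and 15.4 against 0.606, 1.29 and 6.23 CPM (log2 difference −2.90 ± 0.72 SE, adjusted p = 0.00341, −4.78 with the GC offset), and Dazl overlapped at 2.64 and 4.35 and 0, 1.59 and 30.1 CPM (log2 difference 0.53, adjusted p = 0.792, −1.96 with the GC offset). Maternal oocyte genes gave 3 higher in embryos and 2 in ESCs of 10 tested (19 listed) with a median log2 difference of 1.32 (2, 0 and 1.13 with the GC offset). Khdc3 and Ooep were higher in embryos at 534, 847 and 2680 against 16.5 and 45.1 CPM and 75.2, 179 and 351 against 41.4 and 42.6 CPM (log2 differences 5.18 and 2.18, and 7.67 and 1.02 with the GC offset, which ended the call of Ooep). The 2 members called higher in ESCs were the eggshell gene Zp3 (log2 difference −4.19 ± 1.42 SE, adjusted p = 0.0219, −2.42 and not called with the GC offset) and Tle6. Tle6 was at 49.4 and 43.9 against 1.37, 4.505 and 7.59 CPM (log2 difference −3.48 ± 0.51 SE, adjusted p = 6.27e-05, −1.97 and not called with the GC offset).

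Markers of gastrulation lineages were mostly near 0 in embryos and low in ESCs. Neuroectoderm genes gave 0 higher in embryos and 8 in ESCs of 12 tested (13 listed) with a median log2 difference of −4.04 (0, 7 and −3.06 with the GC offset, and a median of −3.35 with genes at 0 set at their bounds) and summed to 104 and 109 CPM in the ESC libraries and 2.33 to 10.9 CPM in the embryos. Nes, also made by fibroblasts and many dividing cells, was at 51.4 and 54.8 against 0, 1.23 and 7.11 CPM (log2 difference −4.37 ± 0.96 SE, adjusted p = 0.0016, −2.91 with the GC offset). Sox1, which defines neural cells, was at 0.474 and 1.04 against 0, 0.0276 and 0.179 CPM (log2 difference −3.71 ± 1.14 SE, adjusted p = 0.013, −2.03 and not called with the GC offset). Mesendoderm genes gave 1 higher in embryos and 6 in ESCs of 10 tested (13 listed) with a median log2 difference of −4.26 (1, 4 and −3.01 with the GC offset), the 1 toward embryos being Eomes, which trophectoderm shares. Mesp1 was at 1.07 and 0.979 CPM in ESCs and Tbx6 at 2.34 and 2.02 CPM, with 3 counts of each in all embryos together.

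Energy metabolism separated the groups with most members of a list on 1 side. Of the 20 glycolysis genes tested, 0 were called higher in embryos and 16 in ESCs, with a median log2 difference of −4.55 (0, 14 and −4.10 with the GC offset). These enzymes were among the most abundant ESC transcripts, and the list summed to 44580 and 35640 CPM in the ESC libraries and 3458 to 6395 CPM in the embryos. Pkm, which makes pyruvate, was at 8074 and 7158 CPM in ESCs and 48.4, 85.4 and 122 CPM in embryos (log2 difference −6.44 ± 0.26 SE, adjusted p = 1.90e-09, −5.34 with the GC offset). Eno1 was at 6467 and 5199 against 88.1, 115 and 493 CPM (log2 difference −5.02 ± 0.53 SE, adjusted p = 3.57e-06, −3.75 with the GC offset). Ldha, which makes lactate, was at 1492 and 1282 against 4.31, 51.9 and 104 CPM (log2 difference −4.74 ± 0.59 SE, adjusted p = 1.50e-05). Slc16a3, the lactate exporter, was at 328 and 279 against 0, 0.0795 and 2.54 CPM (log2 difference −9.53 ± 1.04 SE, adjusted p = 4.45e-06, −7.17 with the GC offset). The highest embryo lay below both ESC libraries in each of these 4 genes. Over the list 18 members did not overlap toward ESCs and 0 toward embryos, against 38.4% and 21% of all genes. Gapdh, Aldoa and Pgam1 were called at log2 differences of −2.66, −3.02 and −2.71 but not with the GC offset (−1.40, −1.14 and −1.79). Hexokinase 2 (Hk2) at 146 and 159.6 against 122, 307 and 469.9 CPM and the monocarboxylate carrier Slc16a1 at 83.6 and 81.7 against 64.8, 160.2 and 261 CPM overlapped, at log2 differences of 0.99 and 0.98 (1.48 and −0.83 with the GC offset).

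Nuclear genes of the respiratory chain lay in the other direction. Of the 81 members tested of 83 listed, 48 were called higher in embryos and 2 in ESCs, with a median log2 difference of 2.66 (54, 2 and 2.95 with the GC offset). In embryos this was 59.3% of members against 14.8% of all genes tested. Uqcrb, of complex III, was at 21.2 and 22.4 CPM in ESCs and 429, 2102 and 7308 CPM in embryos (log2 difference 6.83 ± 1.10 SE, adjusted p = 0.000139, 4.67 with the GC offset). Ndufa5, of complex I, was at 6.37 and 6.85 against 201, 766 and 1054 CPM (log2 difference 6.72 ± 0.81 SE, adjusted p = 1.04e-05). The exceptions were Ndufa4, at 8.30 and 13.5 against 0.114, 0.537 and 4.40 CPM (log2 difference −3.25 ± 1.02 SE, adjusted p = 0.0143, −4.87 with the GC offset). Cox4i2, an oxygen-sensitive subunit isoform, was at 13.2 and 9.79 against 0, 0 and 0.510 CPM (log2 difference −7.04 ± 1.25 SE, adjusted p = 0.000299, −5.28 with the GC offset). Transcripts of the mitochondrial genome were higher too, with 11 of 13 called and a median of 3.40, but with the GC offset 3 were called and the median was 0.89. mt-Co3 was at 263 and 394 CPM in ESCs and 9536, 53810 and 115900 CPM in embryos (log2 difference 7.29 ± 1.05 SE, adjusted p = 5.32e-05, 4.89 with the GC offset) and mt-Co1 at 2075 and 2836 against 15030, 32930 and 65650 CPM (log2 difference 3.74 ± 0.61 SE, adjusted p = 0.00015, 1.47 and not called with the GC offset). Respiratory chain levels varied among embryos, summing to 27240 and 34250 CPM in embryos 5 and 6 and to 47480 to 81760 CPM in the others, all above the 11030 and 10740 CPM of the ESC libraries.

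**Figure D4:**
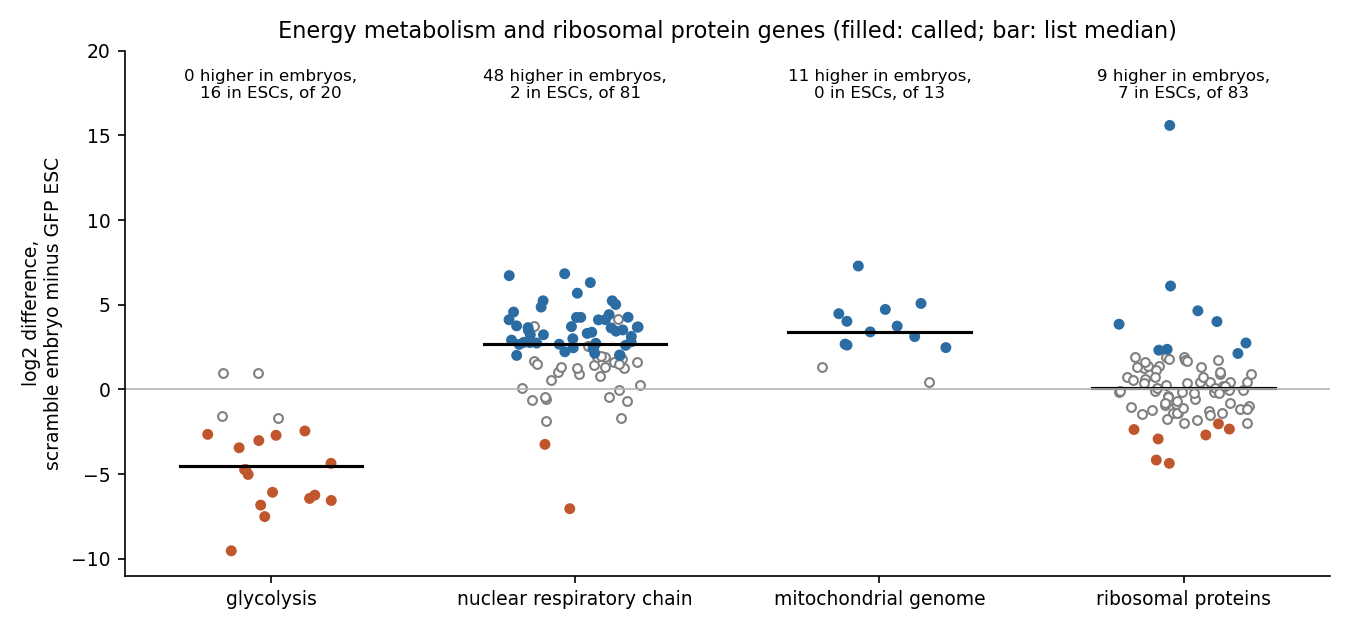
Log2 difference (scramble embryo minus GFP ESC) of each tested gene of 4 lists, filled where called (blue higher in embryos, orange higher in ESCs) and open where not, with the list median as a bar. Glycolysis has 16 of 20 genes called toward ESCs, the nuclear respiratory chain 48 of 81 toward embryos, and the 83 ribosomal protein genes scatter around a median of 0.06.

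Ribosomal protein genes, which are short, highly expressed and make up 3.71% to 8.92% of an embryo library and 11.4% and 10.45% of the ESC libraries, were mostly not called. They gave 9 higher in embryos and 7 in ESCs of 83 tested (84 listed) with a median log2 difference of 0.06 (12, 3 and 0.13 with the GC offset), and the sign of the median changed between scalings. The share and the list were taken by a pattern of symbols. It leaves out the abundant Rplp0 and Rplp1 and takes in Rps12l1 and Rpl6l, both annotated as processed pseudogenes. Rpl39l, a variant that replaces Rpl39 in germ cells, was at 1.81 and 3.44 CPM in ESCs and 50.4, 207 and 281 CPM in embryos (log2 difference 6.11 ± 0.83 SE, adjusted p = 3.03e-05, 4.72 with the GC offset). Rps12l1, annotated as a processed pseudogene near-identical to its parent, so that its split of reads is uncertain, had no count in ESCs and 21.6, 335 and 511 CPM in embryos (at least 3672-fold). Replication-dependent histone genes gave 3 higher in embryos and 10 in ESCs of 64 tested (67 listed) with a median log2 difference of −1.21 (8, 7 and 0.64 with the GC offset), so their median turned sign with the offset. Hist1h2ap was at 5.93 and 9.12 CPM in ESCs and 420.3, 1885 and 2421 CPM in embryos (log2 difference 7.85 ± 0.82 SE, adjusted p = 3.19e-06, 10.90 with the GC offset), but its neighbours in the histone clusters are near-copies and the messages of this class mostly lack poly(A) tails.

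The 10 largest single differences toward embryos, by a rule on fold and abundance, included Dppa1, Tspan8 and Rps12l1. The others were Pramel7, a leucine-rich repeat gene, with no count in ESCs and 286, 437 and 933 CPM in embryos (at least 6388-fold), Trim43a, also without a count in ESCs, at 219, 349 and 768 CPM (at least 5012-fold), and Khdc1a at 13.6, 86.3 and 275 CPM (at least 1316-fold). Timd2, a ferritin receptor gene, was at 1120, 1632 and 2371 CPM against 3 counts in both ESC libraries, Havcr1 at 239.5, 346 and 614 CPM against 1 count and Sycn at 55.3, 269 and 571 CPM against 1 count. The homeobox gene Crxos was at 1693, 3195 and 3933 CPM against 0 and 0.146 CPM (log2 difference 15.06 ± 0.99 SE, adjusted p = 6.00e-08, 14.32 with the GC offset). All 10 were measured in every embryo, the lowest value being 13.6 CPM of Khdc1a.

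On the ESC side the 10 were Fosb and Lox with Ndufa4l2, a hypoxia-induced mitochondrial gene, at 186 and 146 CPM and no embryo count (at least 950.2-fold), Ogdhl at 162 and 161 CPM (at least 924-fold), the carnitine transferase Cpt1c at 99.6 and 104 CPM (at least 582-fold) and the netrin receptor Unc5b at 89.0 and 107 CPM (at least 561.6-fold). The immediate-early gene Arc, Pgk1-rs7 and Col16a1 were also at 0 in all embryos, at 77.7 and 86.3, 103 and 54.7 and 76.9 and 76.7 CPM in ESCs. Pgk1-rs7 is annotated as a processed pseudogene of Pgk1 and its reads may be shared with its parent. Ptk7, a planar polarity receptor gene, had 448 and 455 CPM in ESCs and 3 counts in all embryos.

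Ranked per kilobase of transcript, the top of the 2 profiles shared Ftl1 alone among the first 10, and 32 of the first 100. These values are counts per kilobase, scaled to the same total in each library without TMM factors, so their ratios can differ from those of CPM. Ftl1, ferritin light chain, measured 16830 in the ESC libraries and 8699 in the embryos. In ESCs the first 10 were Gapdh, Eef2, Ftl1, Pkm, Eno1, Rplp1, Rplp0, Aldoa, Rps2 and Eef1a1, which besides Ftl1 are genes of glycolysis and translation. The translation factor Eef2 itself measured 18420 in the ESC libraries and 464 in the embryos on that scale. Embryos were led by mt-Co3, Gm29216, mt-Co1, the metallothionein Mt1, Dppa5a, mt-Co2, mt-Nd1, Ftl1, the histone variant H2afz and Fabp3. Gm29216 is annotated as an unprocessed pseudogene on chr1, and its reads may be shared with the gene it copies, which was not tested. Its counts are not part of the mitochondrial share given above. Mt1, a metal buffer, measured 1857 in the ESC libraries and 12340 in the embryos. H2afz measured 544 in the ESC libraries and 8428 in the embryos.

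**Figure D5:**
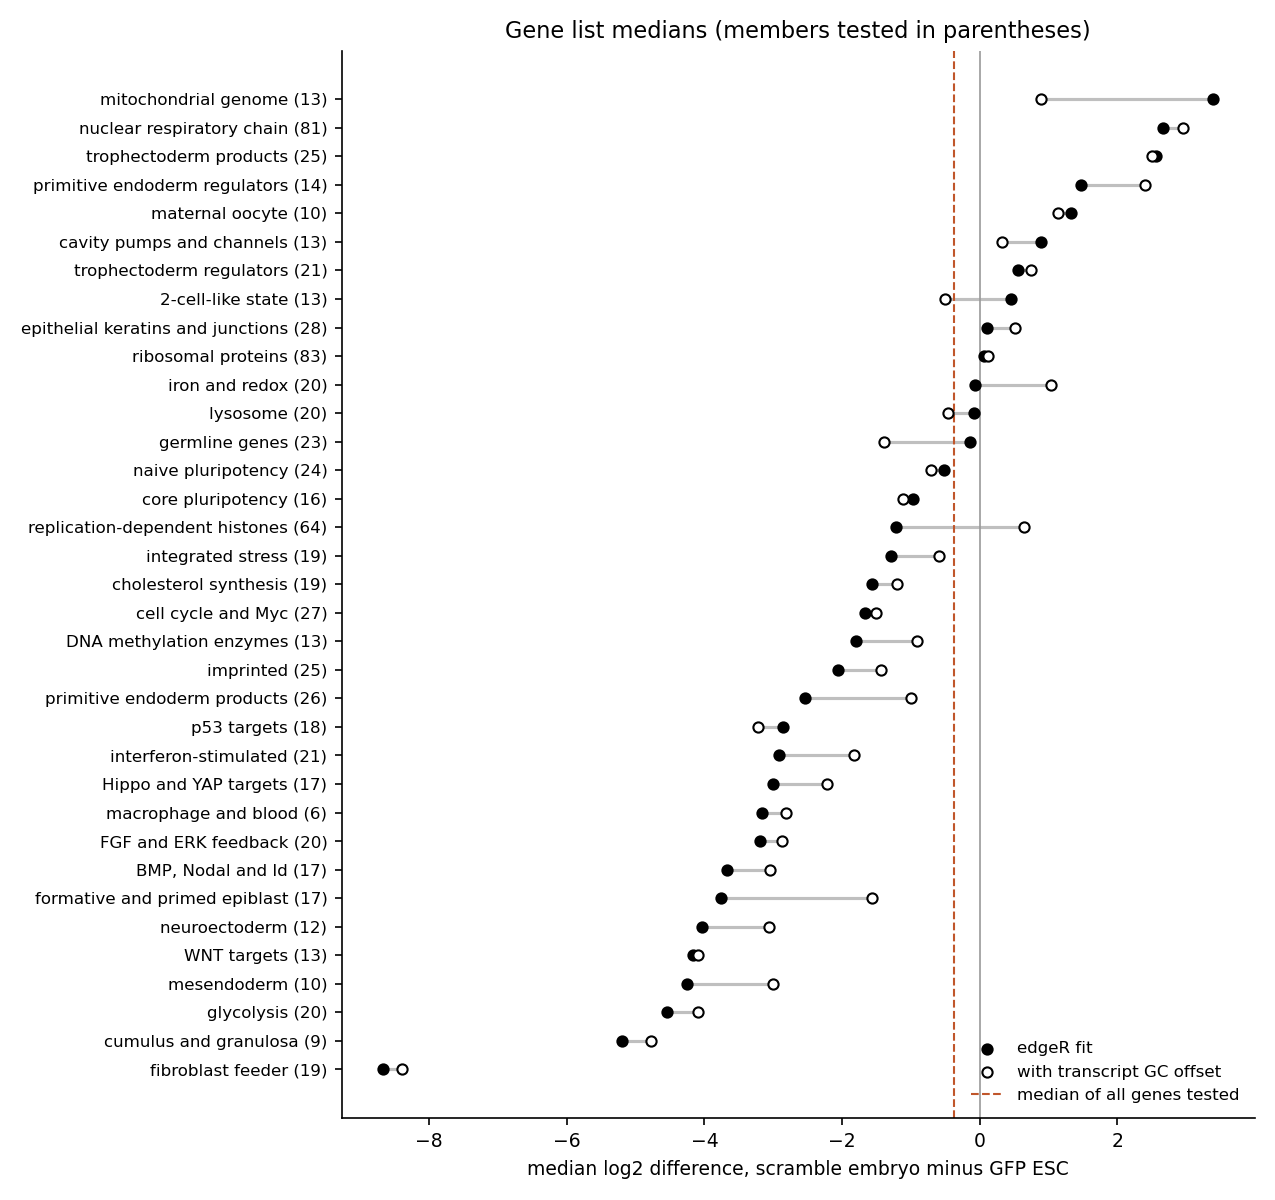
Median log2 difference (scramble embryo minus GFP ESC) of each gene list other than the Y-linked genes, with its number of tested members, from the edgeR fit (filled) and with the GC offset (open), beside the median of all genes tested (dashed, −0.37). Fibroblast genes lie farthest toward ESCs at −8.67, and mitochondrial genome, nuclear respiratory chain and trophectoderm product genes farthest toward embryos at 3.40, 2.66 and 2.57.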

How the data were processed

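The authors deposited estimated counts per gene. The submitters' processing notes name kallisto 0.46 and the build mm10, and no source used here gives the transcript set. Counts were rounded to whole numbers. Symbols came from the RefSeq and gene name tables, and 29831 of 30265 identifiers matched. R 4.3.3 and edgeR 4.0.16 were used (TMM, filterByExpr with a minimum count of 10, robust quasi-likelihood) on the 12 libraries, with Benjamini-Hochberg adjustment over all genes tested. A per-library lowess offset (span 0.3) on transcript GC gave the GC values. A fold against a group at 0 uses 3 counts per library as its floor, for counting error only. Library shares were compared by exact permutation. The fits were tested on simulated counts, and a gene not called is not shown to be equal in both groups.

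Members and lists were chosen with earlier results of these data known. Named genes are the 3 markers, up to 4 called members with the largest difference in each direction of the main lists and up to 2 of the others, the 10 largest differences each way among genes of at least 50 CPM whose groups did not overlap, and the 10 most abundant genes per kilobase. Further list members stand as values with their group. Alternatives were other scalings, filters, DESeq2 1.42.0, limma 3.58.1 voom, offsets, a replicate block, and libraries left out. Some list members are not reported here.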

Additional observations from a re-analysis of the deposited data

Results flagged for a closer look

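In 43 sets of values searched among the 10 embryos, 1 value lay farther from the rest than Dixon's limit, and chance alone marks about 1 set in 20. The mean log2 CPM of the primitive endoderm regulators was 0.51 in scramble embryo 6, against 1.54 in the next lowest embryo and a median of 1.96. In that embryo Gata6 was at 48.4 CPM, Pdgfra at 9.13 CPM, Sox17 at 8.07 CPM and Gata4 at 1.71 CPM, the lowest embryo value of each, and Sox7 had no count. The same embryo had the second highest Pou5f1 at 142 CPM and the highest Cdx2 at 152 CPM.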

How the results depend on the processing

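In all 54 recounts under the alternatives, the numbers of called genes stayed within 1.5 times of the values given. DESeq2 called 2628 genes higher in embryos and 3975 in ESCs, total counts 1938 and 5211, and limma voom 2821 and 6053. The share of calls higher in embryos ran from 27.1% with total counts to 41% with a 5 CPM filter, and was 40.6% with upper quartile scaling, against 35.2% in the reported fit. Leaving out 1 library at a time gave 1855 to 2545 genes higher in embryos and 3706 to 4501 in ESCs, with Pou5f1 at −5.32 to −4.83, Cdx2 at 5.54 to 6.16 and Gata4 at −0.49 to −0.15. Over the same set, embryo minus ESC differences ran from 10.64 to 12.21 percentage points for the mitochondrial share, −4.71 to −3.75 for the ribosomal share, −5232 to −4742 for genes with a count and 7.24 to 9.18 points for the 10 most abundant genes. With 1 ESC library left, it is assumed to vary like the embryos. Gata4 turned positive with the GC offset (0.90) and in both fits of the 4 libraries numbered 1 and 2 (0.12 with a replicate block, 0.16 without), in none with a call. The numbers do not pair the samples (correlation of deviations −0.0243). The replicate block called 2104 and 3231 genes and the same libraries without it 2556 and 4756, with Pou5f1 at −5.83 and −5.67 and Cdx2 at 5.18 in both. The GC offset turned Ftl1 (1.77), Rplp1 (0.18) and Rplp0 (0.28) and the medians of histone (0.64), 2-cell-like (−0.50) and iron and redox genes (1.03), and members given beside their lists that it turned have its value there. The 2-cell-like median also turned with limma voom (−0.91), no filter on low counts (−2.74), all 20 libraries (−0.52), the length offset (−0.08) and the replicate block (−0.17). The maternal oocyte median turned with limma voom (−0.14) and a 5 CPM filter (−0.64), and the mesendoderm median with that filter (1.42). Ranked by CPM in place of counts per kilobase, the Pou5f1 percentile difference was −21.5 points in place of −13.4. Of 4610 values for named genes under the alternatives, 4448 kept direction and side of the threshold and 139 lost the call. Embryo totals limit precision more than ESC totals, since 3 counts are 0.108 to 0.264 CPM there.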

Other observations

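Counts for gene groups outside lineage identity are set against the 14.8% of all genes called higher in embryos and the 27.3% called higher in ESCs. Targets of p53, a brake on the cell cycle and a trigger of cell death, gave 1 higher in embryos and 13 in ESCs of 18 tested with a median log2 difference of −2.86 (0, 12 and −3.22 with the GC offset). Bbc3 (Puma), which starts apoptosis, was at 270.1 and 266 CPM in ESCs and 0, 0.437 and 1.61 CPM in embryos (log2 difference −8.94 ± 0.66 SE, adjusted p = 1.45e-07, −5.85 with the GC offset), and Mdm2, the p53 ligase, at 263 and 219.5 against 17.3, 26.7 and 38.3 CPM (log2 difference −3.09 ± 0.26 SE, adjusted p = 4.63e-07, −4.23 with the GC offset). Perp, a p53 target that also sits in desmosomes, was higher in embryos at 40.0 and 24.5 against 129.9, 194 and 275 CPM (log2 difference 2.57 ± 0.39 SE, adjusted p = 7.62e-05, 1.75 and not called with the GC offset). Cell cycle and Myc genes gave 1 higher in embryos and 11 in ESCs of 27 tested with a median log2 difference of −1.67 (0, 10 and −1.51 with the GC offset). Cdkn2a, an inhibitor that rises in cultured fibroblasts, was at 80.9 and 86.5 CPM in ESCs and gave 2 counts in all embryos, and Ccnd1 was at 81.4 and 93.2 against 0, 1.49 and 3.54 CPM (log2 difference −5.78 ± 0.71 SE, adjusted p = 1.20e-05, −4.10 with the GC offset). Myc overlapped at 14.7 and 14.8 and 3.43, 7.13 and 22.1 CPM (log2 difference −0.75, adjusted p = 0.261, 0.61 with the GC offset), while Mycn was higher in ESCs at 132 and 166 against 4.57, 10.8 and 16.4 CPM (log2 difference −3.82 ± 0.30 SE, adjusted p = 2.59e-07, −2.66 with the GC offset).

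Toward ESCs, 26.3% of integrated stress, 25% of lysosome and 20% of iron and redox genes were called, against 27.3% of all genes. Toward embryos the shares were 0%, 5% and 20%, against 14.8%. For cholesterol synthesis genes they were 36.8% toward ESCs and 10.5% toward embryos. Integrated stress genes gave 0 higher in embryos and 5 in ESCs of 19 tested with a median log2 difference of −1.29 (0, 4 and −0.58 with the GC offset). Ddit4, an inhibitor of growth signalling induced by stress and low oxygen, was at 1151 and 972 CPM in ESCs and 0.249, 0.974 and 2.62 CPM in embryos (log2 difference −10.01 ± 0.49 SE, adjusted p = 5.88e-09, −7.85 with the GC offset), whereas the pathway's own factor Atf4 was under 4-fold at 351 and 297 against 71.3, 144 and 199.5 CPM (log2 difference −1.15, adjusted p = 0.00418, 0.21 with the GC offset). Interferon-stimulated genes gave 0 higher in embryos and 11 in ESCs of 21 tested (23 listed) with a median log2 difference of −2.92 (0, 8 and −1.83 with the GC offset, and a median of −2.39 with genes at 0 set at their bounds), with Bst2 at 232 and 245 against 11.2, 27.6 and 32.6 CPM (log2 difference −3.36 ± 0.33 SE, adjusted p = 1.64e-06, −1.29 and not called with the GC offset). Cholesterol synthesis genes gave 2 higher in embryos and 7 in ESCs of 19 tested with a median log2 difference of −1.57 (1, 7 and −1.20 with the GC offset), with Fdft1, the enzyme gene for squalene synthesis, at 2.37 and 13.7 CPM in ESCs and 29.3, 65.5 and 115 CPM in embryos (log2 difference 3.08 ± 0.74 SE, adjusted p = 0.00295). Lysosome genes gave 1 higher in embryos and 5 in ESCs of 20 tested with a median log2 difference of −0.08 (1, 1 and −0.46 with the GC offset) and iron and redox genes 4 higher in embryos and 4 in ESCs of 20 tested with a median log2 difference of −0.07 (7, 6 and 1.03 with the GC offset), and the sign of both medians changed between scalings. Within the latter, Hmox1, which breaks down haem, was at 425 and 329.8 against 2.23, 4.95 and 21.4 CPM (log2 difference −5.57 ± 0.61 SE, adjusted p = 4.88e-06, −4.78 with the GC offset), and Sod2, the mitochondrial superoxide dismutase gene, at 7.09 and 9.41 against 179, 378 and 721 CPM (log2 difference 5.75 ± 0.67 SE, adjusted p = 8.06e-06, 6.84 with the GC offset). The 4 Y-linked genes summed to 113 to 148 CPM in 6 embryos, to 2.29 to 5.57 CPM in the other 4, and to 1.87 and 6.89 CPM in the ESC libraries, and none was called in edgeR's quasi-likelihood test (1, Uty, at an unadjusted p under 0.05), while 3 were called higher in embryos by DESeq2, 2 by limma voom and 1 with the length offset.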
